A study of Mus musculus with 9 samples.

Results

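The 7 gene models described here lie between positions 41809083 and 42587038 of mouse chromosome 4 (GRCm38), an interval of near-identical copies, and were measured in the cerebellum of SCA3 transgenic mice. They are Gm10601, Gm13302, Gm3893, Gm13301, Gm5859, Gm17081 and Gm10593, and were picked by symbol, with results of the comparisons against the 15Q mice known. They make up 7 of the 37816 genes with counts, and all 7 passed the filter on low counts that left 19353 genes. Because the comparisons against 15Q were in view when the members were picked, their values in these comparisons are descriptions without a test.

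Spinocerebellar ataxia type 3 (SCA3) follows from an expanded CAG tract in ATXN3, which codes for the deubiquitinase ataxin-3. RNA from the cerebellum of 9 mice of C57BL/6 background, 3 per group, was sequenced at 18 months of age. Every mouse carried a yeast artificial chromosome with human ATXN3, whose tract held 15 CAG repeats in the 15Q controls and 84 in the 84Q and 84Q+IGF1 mice. Mice of the 84Q+IGF1 group received IGF-1, insulin-like growth factor 1, at 50 mg/kg each week from 9 to 18 months of age. The 15Q and 84Q mice received PBS in the study's methods and were called untreated in their sample labels. The 15Q mice came from a laboratory that donated them and the 84Q mice from a mouse repository, so repeat length and colony cannot be told apart. All mice carry the transgene, so no group shows these genes without it.

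An unprocessed pseudogene is a copy of a gene made by duplication of genomic DNA that is annotated as no longer coding for a protein. The stretch of chromosome 4 around the members holds tandem copies of the chemokine genes Ccl27, Ccl19 and Ccl21, of Il11ra, the receptor subunit for interleukin 11, and of Fam205a. Ccl19 and Ccl21 guide T cells and dendritic cells into lymphoid tissue through the receptor Ccr7, and Ccl27 is a chemokine of the skin. Regions of repeated copies can differ in copy number between mouse strains, and a short read from such a region can match several places in the genome.

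All 7 members lie on the + strand, and no function is assigned to them here. Gm10601 (41809083 to 41810504), Gm13302 (41893388 to 41895236), Gm5859 (42236859 to 42239182) and Gm17081 (42239725 to 42240202) are single-exon unprocessed pseudogenes in the GENCODE vM21 annotation. Gm13301 (42216908 to 42235604) is a transcribed unprocessed pseudogene with 5 exons. Gm3893 (42091207 to 42092287) is the only member annotated as protein coding, with 2 exons, and Gm10593 (42552478 to 42587038) is annotated as antisense, with 5 exons. Gm13301, Gm5859 and Gm17081 lie side by side, with 1254 and 542 bases between neighbors. The other neighbors are separated by 82883 bases (Gm10601 and Gm13302), 195970 bases (Gm13302 and Gm3893), 124620 bases (Gm3893 and Gm13301) and 312275 bases (Gm17081 and Gm10593).

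The exonic sequences of the members were taken from the GENCODE vM21 transcripts of GRCm38 and aligned. Of the 21 pairs of members, 19 aligned, and the aligned bases outside gaps were between 98.7% and 100% identical. Gm17081 aligned with neither Gm10601 nor Gm3893, because its 478 bases cover another portion of the repeated sequence. The 6 members other than Gm17081 shared a run of 238 identical bases, longer than one 150-base read and present in 12 annotated genes. It is shown at its position in Gm10601 because no read within it, taken without its mate, can tell the copies apart.
Gm10601, chr4:41809854-41810091, + strand: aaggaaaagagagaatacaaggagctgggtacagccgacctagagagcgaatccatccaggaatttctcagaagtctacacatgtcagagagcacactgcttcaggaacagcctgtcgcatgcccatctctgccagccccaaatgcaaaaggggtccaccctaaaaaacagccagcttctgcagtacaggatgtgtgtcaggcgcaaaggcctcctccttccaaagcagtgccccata

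The 90 bases in which these 6 members differed most held 3 differing positions. Capitals mark the bases that differ from Gm10601.
Gm10601, chr4:41809590-41809679, + strand: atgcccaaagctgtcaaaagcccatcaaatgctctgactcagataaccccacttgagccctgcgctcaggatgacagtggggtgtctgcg
Gm13302, chr4:41894453-41894542, + strand: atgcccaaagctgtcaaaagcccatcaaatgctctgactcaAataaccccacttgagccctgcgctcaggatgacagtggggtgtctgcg
Gm3893, chr4:42091207-42091296, + strand: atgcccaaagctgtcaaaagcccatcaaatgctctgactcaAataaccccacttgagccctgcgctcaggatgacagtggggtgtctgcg
Gm13301, chr4:42235078-42235167, + strand: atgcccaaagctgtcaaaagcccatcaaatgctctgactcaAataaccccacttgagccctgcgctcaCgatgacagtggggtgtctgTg
Gm5859, chr4:42237951-42238040, + strand: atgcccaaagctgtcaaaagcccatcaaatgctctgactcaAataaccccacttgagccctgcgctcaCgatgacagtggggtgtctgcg
Gm10593, chr4:42585809-42585898, + strand: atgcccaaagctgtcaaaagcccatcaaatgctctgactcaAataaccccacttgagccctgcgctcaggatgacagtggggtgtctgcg
Gm13302, Gm3893 and Gm10593 had the same letters in this window, and each differed from Gm10601 at 1 base.

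Gm17081 could be compared with Gm13302, Gm13301, Gm5859 and Gm10593, and the 90 bases with most differences held 4 differing positions. Capitals mark the bases that differ from Gm17081.
Gm17081, chr4:42239945-42240034, + strand: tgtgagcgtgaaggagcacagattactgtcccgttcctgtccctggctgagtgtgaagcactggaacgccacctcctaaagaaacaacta
Gm13302, chr4:41893577-41893666, + strand: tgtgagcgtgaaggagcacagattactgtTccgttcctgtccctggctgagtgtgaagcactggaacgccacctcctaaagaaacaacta
Gm13301, chr4:42234202-42234291, + strand: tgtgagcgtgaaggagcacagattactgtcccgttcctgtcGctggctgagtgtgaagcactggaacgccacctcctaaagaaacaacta
Gm5859, chr4:42237075-42237164, + strand: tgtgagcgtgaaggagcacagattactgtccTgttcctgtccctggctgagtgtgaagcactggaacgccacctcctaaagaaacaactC
Gm10593, chr4:42584884-42584973, + strand: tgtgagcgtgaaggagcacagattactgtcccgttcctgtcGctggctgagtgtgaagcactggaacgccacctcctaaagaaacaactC
Each of the other 4 members differed from Gm17081 by 1 or 2 bases here.

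A stretch of 48 bases set Gm10601 and Gm10593 apart from Gm13302, Gm13301 and Gm5859, which lack it. The capital marks the only base at which both versions differ.
Gm10601, chr4:41809337-41809384, + strand: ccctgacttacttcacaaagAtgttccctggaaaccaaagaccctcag
Gm10593, chr4:42585556-42585603, + strand: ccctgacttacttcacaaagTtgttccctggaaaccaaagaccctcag
The version of Gm10601 was found in no other annotated gene, and that of Gm10593 was found in 7 genes.

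How much of each member is its own was measured by cutting its exonic sequence into all overlapping words of 100 bases and searching them, on both strands, in 141767 annotated transcripts. The genome itself was not searched. In Gm10601, 33.9% of the words occurred in no other gene, the highest share among the members. Gm13302 had 28.7% of its own, Gm17081 28.5%, Gm5859 23.1% and Gm13301 18.3%. In Gm3893 the share was 2.47%, and Gm10593 had no word of its own, as each of its 3440 words was also in Gm3892, an antisense model of the same interval. The 135 genes with counts that were not found in GENCODE vM21 had no sequence to search. Among the others with counts, none outside the interval shared over 50% of its words with a member. Inside it, Gm13303 and Gm3892 shared all of theirs, Gm21980 90.9%, Gm2163 71.6%, Gm3883 53.5% and Gm17167 50.3%. The median share of own words over the 47 genes with counts in the 500 kb on either side of the interval was 100%. With words of 150 bases, the length of one read of a pair, the share was 50.9% in Gm10601, 72.3% in Gm17081 and 0% in Gm10593.

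**Figure D1:**
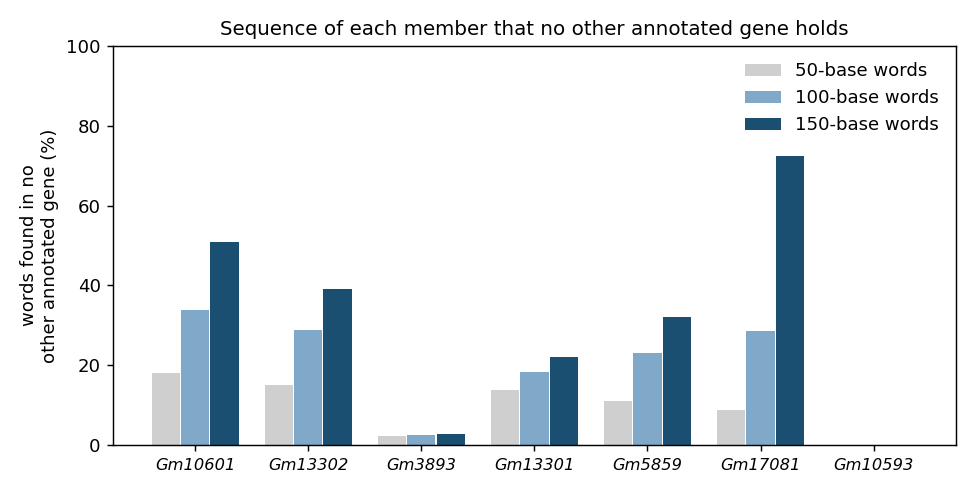
Share of the overlapping exonic words of each member that occurred in no other annotated gene, in percent, for words of 50, 100 and 150 bases (bars from 0). Gm10593 had no such word at any length and Gm3893 had at most 2.63%, while the other members were higher.

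The counts of one member therefore cannot be assigned with certainty to that copy. How reads matching several places were counted is not given in the sources used here. Gm13301 also shared 1312 exonic bases on its own strand with Gm17167, and 53 bases of Gm13302 were overlapped by Gm13307 on the opposite strand. The strand setting of the counting is likewise not given. For Gm13301, Gm17081 and Gm10593, the version of the gene model in the counts differed from that of GENCODE vM21, so the model counted may differ in length or position from the one described, and no level per length is given for these 3.

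Library totals ranged from 17482654 to 58269196 counts, and a floor of 3 counts lay far below the lowest member count, 273. The summed level of 12 cerebellar markers was between 9535 and 10610 CPM in all 9 libraries, where CPM are counts scaled to a common library total with TMM factors. Over all tested genes, 414 were called in 84Q against 15Q, 435 in 84Q+IGF1 against 15Q and none in 84Q+IGF1 against 84Q. A gene counted as called when its Benjamini-Hochberg adjusted p from edgeR was below 0.1 and its groups differed 1.5-fold or more. Nothing in the labels says whether samples of a group came from separate litters or runs, so the spread between them may be partly technical. The sample titles carry unexplained codes whose leading numbers recur between 84Q and 84Q+IGF1 mice, and no fit used these codes.

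Gm17081 had the highest level of the members. It stood at 159, 146 and 167 CPM in 15Q replicates 1 to 3, at 156, 329 and 288 CPM in 84Q, and at 308, 333 and 320 CPM in 84Q+IGF1. In 84Q replicate 1 the level was inside the 15Q range, whereas the other 5 libraries with 84 repeats lay well above it. The mean level was 157 ± 10.6 CPM for the 15Q mice, 258 ± 90.4 CPM for 84Q and 320 ± 12.2 CPM for 84Q+IGF1 (SD, n = 3 each).

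Gm5859, 542 bases upstream of Gm17081, followed the same course. Its levels were 135, 119 and 146 CPM in 15Q, 136, 282 and 231 CPM in 84Q, and 262, 282 and 270 CPM in 84Q+IGF1. Again 84Q replicate 1 was within the 15Q range, and the 84Q+IGF1 libraries did not overlap with 15Q. The means were 133 ± 13.8, 216 ± 74.0 and 271 ± 10.1 CPM (SD, n = 3 each).

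Gm13301, the multi-exon transcribed pseudogene of this block, had 56.3, 51.6 and 61.3 CPM in 15Q. It had 57.3, 123 and 104 CPM in 84Q, and 106, 126 and 119 CPM in 84Q+IGF1. The first 84Q library again lay within the 15Q range. Means were 56.4 ± 4.83, 94.8 ± 33.8 and 117 ± 10.3 CPM (SD, n = 3 each).

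Gm13302, near the start of the interval, had 46.0, 46.5 and 51.2 CPM in 15Q. Its 84Q libraries stood at 47.9, 98.3 and 80.5 CPM and its 84Q+IGF1 libraries at 95.7, 106 and 99.2 CPM. Only 84Q replicate 1 overlapped with 15Q. Means were 47.9 ± 2.88, 75.6 ± 25.6 and 100.1 ± 4.97 CPM (SD, n = 3 each).

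Gm10601, the outermost member on the side of Ccl27a, had the largest fold difference from 15Q. Its levels were 14.2, 13.1 and 17.2 CPM in 15Q, 17.1, 31.3 and 32.1 CPM in 84Q, and 37.3, 41.5 and 39.3 CPM in 84Q+IGF1. In contrast to the other members, every 84Q+IGF1 library of Gm10601 was above every 84Q library. The means were 14.9 ± 2.13, 26.8 ± 8.45 and 39.3 ± 2.11 CPM (SD, n = 3 each).

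Gm3893, the protein-coding model, had 10.7, 10.3 and 12.6 CPM in 15Q, 12.4, 21.9 and 20.4 CPM in 84Q, and 20.3, 23.3 and 22.7 CPM in 84Q+IGF1. The 84Q replicate 1 value lay within the 15Q range. Gm10593, the antisense model without a word of its own, had 10.1, 10.4 and 10.9 CPM in 15Q, 11.9, 20.6 and 18.8 CPM in 84Q, and 18.8, 19.7 and 19.4 CPM in 84Q+IGF1. It was the only member for which 84Q replicate 1 lay above all 15Q libraries.

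**Figure D2:**
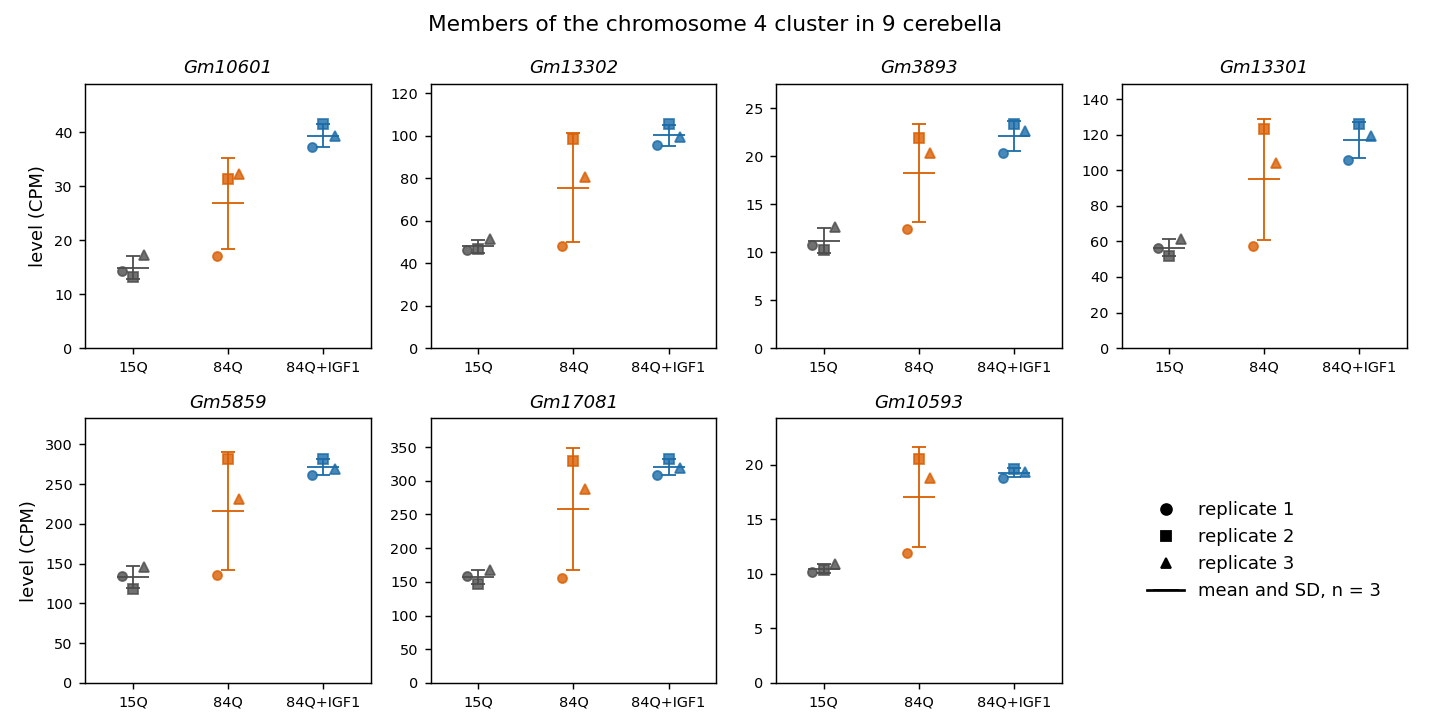
Level of each member in CPM (vertical axes from 0) in the 3 replicates of 15Q, 84Q and 84Q+IGF1; horizontal bars and whiskers are the mean and SD. In every panel 84Q replicate 1 (circle) sits at the level of the 15Q points or just above, and the other 84Q and all 84Q+IGF1 points sit higher.

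Summed over the 7 members, the level was 431, 397 and 467 CPM in 15Q, 438, 906 and 775 CPM in 84Q, and 848, 931 and 889 CPM in 84Q+IGF1. The 84Q libraries thus fell on both sides of a wide gap. In 84Q replicate 1 the members were between 0.991 and 1.15 times their 15Q mean. In the other 5 libraries with 84 repeats the ratio to the 15Q mean ran from 1.68 to 2.79. The label codes do not say what distinguishes 84Q replicate 1 from the other 84Q mice. Fewer cells with this RNA and less RNA per cell cannot be told apart in whole cerebellum.

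In 84Q against 15Q, log2 fold changes of the members were between 0.65 (Gm13302) and 0.84 (Gm10601), with a median of 0.70, where the median over all genes tested was −0.0019. All 7 were called higher, beside 0.238% of all genes tested called higher (2.14% called in either direction); as this comparison was known when the members were picked, the count only describes that choice. Only for Gm10593 were all 3 84Q libraries above 15Q, which held for 11.9% of the genes tested. Gm13302 had the smallest fold change of the called members, and Gm3892, a copy that is no member, had nearly the same log2 fold change, 0.64, which is also past 1.5-fold, and was not called because of its adjusted p. Without 84Q replicate 1 the members' log2 fold changes ran from 0.90 to 1.09. The number called fell to 0 without 15Q replicate 2, without 84Q replicate 2 or without 84Q replicate 3, to 1 without 15Q replicate 3 and to 2 without 15Q replicate 1. Leaving out 84Q+IGF1 replicate 2 gave 4 and leaving out 84Q+IGF1 replicate 3 gave 3.

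In 84Q+IGF1 against 15Q the log2 fold changes ran from 0.88 (Gm10593) to 1.40 (Gm10601), with a median of 1.03 against −0.0051 over all genes tested. All 7 members were called higher, where 0.186% of the genes tested were called higher and 2.25% in either direction. Every 84Q+IGF1 library was above every 15Q library for each member, which held for 11.7% of the genes tested. Both counts describe the choice of members. Without 15Q replicate 2, 5 of the 7 were called. With the 84Q and 84Q+IGF1 mice pooled against 15Q, 7 were called higher (0.315% of all genes tested, with 3.47% called in either direction), and 3 without 15Q replicate 2. All 6 libraries with 84 repeats lay above 15Q for 1 member, Gm10593, and for 5.93% of the genes tested. Both comparisons use the same 3 control mice as the one before.

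The comparison of 84Q+IGF1 with 84Q addressed whether the hormone changed these RNAs in mice with the expanded tract. It equals the difference between both comparisons against 15Q, which were in view when the members were picked, and uses the same libraries. Its intervals and p-values are therefore not independent of that choice. None of the 7 was called, where 0 of all genes tested were called by edgeR, 4.68% had an unadjusted p under 0.05 and DESeq2 called 6 genes. All 7 members had a positive log2 fold change, between 0.18 and 0.56, with a median of 0.31.

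Gm10601 had the largest difference, a log2 fold change of 0.56 with a 95% interval from 0.14 to 0.98 (standard error 0.19, edgeR, adjusted p = 0.969). This interval includes the 1.5-fold threshold. Its 3 treated libraries were all above the 3 untreated ones, as were those of 3.96% of the genes tested. For Gm13302 the value was 0.41, with an interval from 0.011 to 0.81 (adjusted p = 0.969, edgeR). The other 5 members had values of 0.33 (Gm5859), 0.31 (Gm17081), 0.31 (Gm13301), 0.29 (Gm3893) and 0.18 (Gm10593), and each interval included 0. The upper bounds of these 5 intervals lay between 0.53 and 0.75, so a change of up to 1.44-fold to 1.68-fold was within the error.

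**Figure D3:**
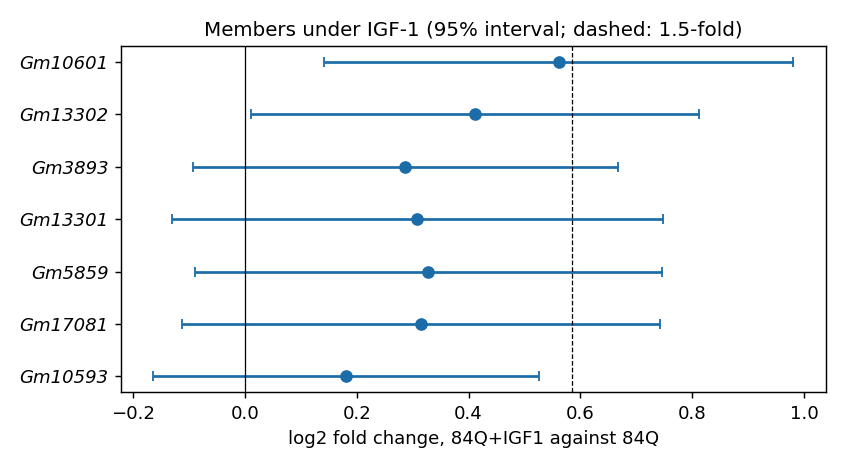
Log2 fold change of each member in 84Q+IGF1 against 84Q with its 95% interval (n = 3 per group); the solid line marks no change and the dashed line 1.5-fold. All 7 points are to the right of 0, and the intervals of Gm10601 and Gm13302 alone exclude it before adjustment.

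Without 84Q replicate 1 this difference was smaller for all 7 members, and for 6 of them at most 0.16. The log2 fold changes of 84Q+IGF1 against 84Q then ranged from −0.031 (Gm10593) to 0.31 (Gm10601), with a median of 0.064. Without 84Q replicate 2 they ranged from 0.35 to 0.69 (median 0.55), and without 84Q replicate 3 from 0.26 to 0.71 (median 0.38). Replicate 1 was the lowest 84Q library for each member, so leaving it out had to lower the difference. Over the alternatives that kept the filter on low counts, and by DESeq2, adjusted p of the members lay between 0.800 and 1. Without the filter, edgeR pooled the spread over all genes, and 5 members had an adjusted p under 0.1, the lowest 2.31e-06 (Gm10601), with no member reaching 1.5-fold.

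The make-up of the sum varied little between libraries. Gm17081 contributed between 35.6% and 37.2% of the summed CPM, Gm5859 between 29.8% and 31.3%, and Gm13301 between 12.5% and 13.6%. Gm13302 contributed between 10.4% and 11.7%, and Gm3893 and Gm10593 at most 2.83% and 2.71%. The relative range was widest for Gm10601, whose share ran from 3.30% to 4.46%. Per length, in TPM (counts divided by exonic length and scaled to a common total), the 4 members with matching gene models in 15Q stood at 232 ± 26.3 (Gm5859), 105 ± 7.57 (Gm13302), 49.96 ± 6.25 (Gm3893) and 42.4 ± 6.58 TPM (Gm10601; SD, n = 3). Gm3893 and Gm10601 differed by about their spread, and in 84Q+IGF1 their order was turned, at 97.0 ± 8.79 and 110 ± 7.73 TPM. Gm5859 remained highest at 465 ± 24.7 TPM and Gm13302 second at 216 ± 13.9 TPM.

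Around the members, the annotation placed 24 other genes with counts in the interval, 22 of which were tested. In 84Q against 15Q none of these 22 was called, although 19 had a positive log2 fold change. In 84Q+IGF1 against 15Q, 7 were called higher and none lower, and in 84Q+IGF1 against 84Q none was called. Each of the 7 shared 100-base words with a member. With both 84Q groups pooled against 15Q, 7 were called higher, of which 4 shared words with a member and 3, Gm21541, Gm13304 and Ccl21b, shared none. Gm21541 and Gm13304 were named after their values were seen. Among the 12 tested genes that shared such words, the median log2 fold change in 84Q+IGF1 against 15Q was 0.67, and among the 10 that shared none it was 0.29. The ranges overlapped, from −0.076 to 0.93 and from −0.085 to 0.73. In 84Q against 15Q the highest value was 0.64 among the genes sharing words and 0.67 (Ccl21b) among those sharing none.

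Of the other genes of the interval, Gm17167 and Gm3892 had the highest levels. Gm17167, a processed transcript that overlaps Gm13301, had 65.6, 61.7 and 93.2 CPM in 15Q, 64.9, 146 and 113 CPM in 84Q, and 129, 155 and 137 CPM in 84Q+IGF1. Gm3892, which holds every word of Gm10593, had 42.4, 40.9 and 46.4 CPM in 15Q, 42.5, 82.8 and 78.3 CPM in 84Q, and 76.1, 87.2 and 74.0 CPM in 84Q+IGF1. In both genes 84Q replicate 1 lay at the 15Q level. Gm21093, Gm3883 and Gm13307 had log2 fold changes of 0.61, 0.73 and 0.80 in 84Q+IGF1 against 15Q and were called.

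Copies of other gene families in the interval were mixed. Ccl21b, a copy of the Ccl21 chemokine gene that shares no word with a member, averaged 10.8 ± 1.60 CPM for 15Q, 17.4 ± 7.51 CPM for 84Q and 17.5 ± 1.67 CPM for 84Q+IGF1 (SD, n = 3 each), and was not called against 15Q for either group alone but was called with both 84Q groups pooled (log2 fold change 0.68). Its level in 84Q replicate 1, 8.83 CPM, was likewise below the other 84Q libraries. Mean levels in 15Q, 84Q and 84Q+IGF1 were 13.5, 12.7 and 15.5 CPM for Gm20878 and 11.8, 12.7 and 14.2 CPM for Fam205a3, and neither gene was called.

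In the 500 kb on either side, 37 of 47 genes were tested, and no gene was called in any of the comparisons. Their median log2 fold change was 0.11 in 84Q against 15Q and 0.10 in 84Q+IGF1 against 15Q. Vcp, a segregase of ubiquitinated proteins, had the highest level, with means of 206, 221 and 217 CPM in the 3 groups. Cntfr, the receptor for ciliary neurotrophic factor, had 160, 174 and 173 CPM, and Phf24 had 132, 124 and 118 CPM. Fam219a, Dnajb5, a co-chaperone of Hsp70, and Ubap1, a subunit of the ESCRT-I complex, had log2 fold changes of at most 0.14 in both comparisons against 15Q.

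The chemokine and receptor genes at the edges of the repeats were not called either. Group means, in the order 15Q, 84Q and 84Q+IGF1, were 45.2, 47.5 and 49.3 CPM for Ccl27a and 61.5, 62.9 and 62.6 CPM for Il11ra1. Ccl21a had 2.44, 3.32 and 3.67 CPM, and Il11ra2 had log2 fold changes of 0.16 and 0.20 against 15Q. Ccl27b and Ccl19 had group means of at most 1.21 CPM.

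**Figure D4:**
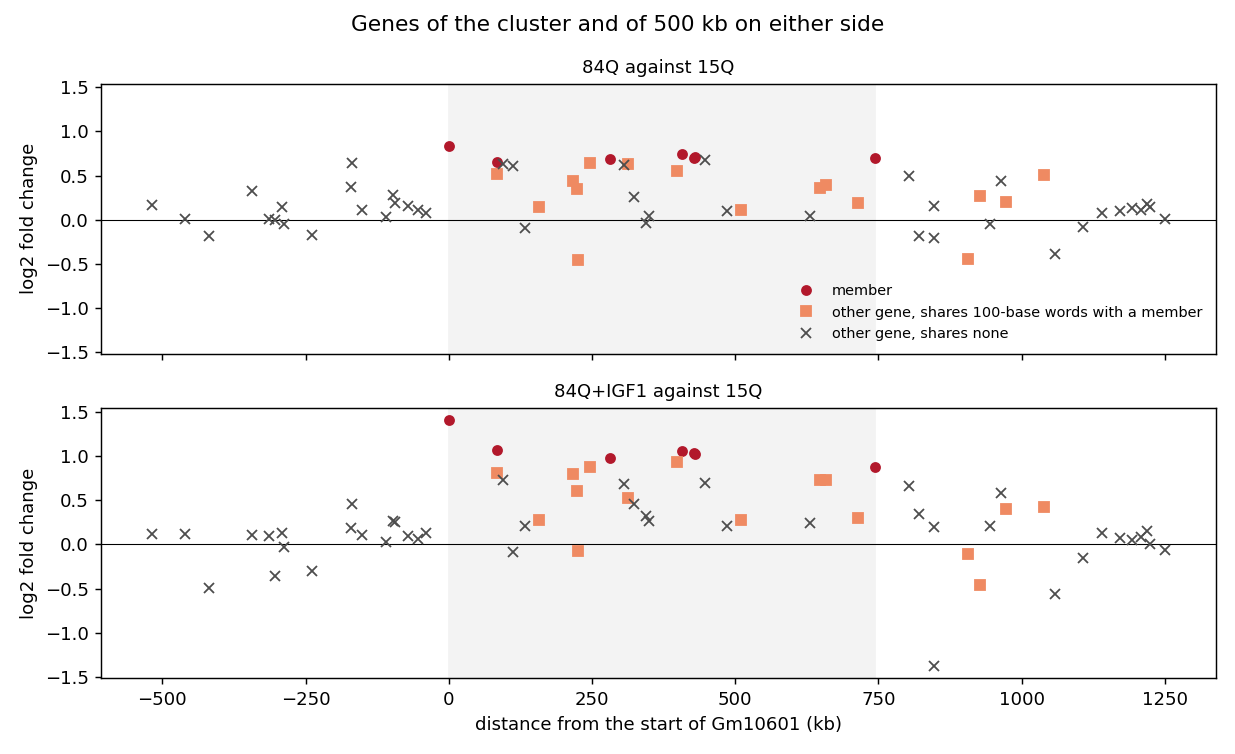
Log2 fold change against 15Q of the tested genes of the interval and of 500 kb on either side, by distance in kb from the start of Gm10601; the shaded band spans the members. Members (circles) lie among the highest points of the band, the other copies spread between them and 0 with few exceptions, and genes outside the band have a median of 0.11 above and 0.10 below.

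By Pearson's r of log2 CPM over the 9 libraries, the genes most like Gm10601 were the members Gm3893 (0.99), Gm13302 (0.98), Gm5859 (0.98) and Gm17081 (0.98). These values are descriptions, as the points share libraries and the members share sequence, so reads of one copy may be counted for another. Outside the members, the highest values were those of ENSMUSG00000118458 (0.98), ENSMUSG00000118434 (0.97), Gm3892 (0.97), a further gene without a name (0.96) and Gm17167 (0.95). The 3 genes without a name have no position in the annotation used here. Their words were not searched, and whether they lie in the interval is not known here. The mean level of ENSMUSG00000118458 was 119 CPM in 15Q, 189 CPM in 84Q and 237 CPM in 84Q+IGF1, with 118 CPM in 84Q replicate 1.

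Other differences between the mice were set beside the members. Xist, the noncoding RNA that coats the inactive X, was high in 15Q replicates 2 and 3 (789 and 949 CPM), 84Q replicate 1 (719 CPM) and 84Q+IGF1 replicate 2 (799.8 CPM), and at most 1.15 CPM in the other 5 libraries. The members were low in 3 of the 4 libraries with high Xist, and 84Q+IGF1 replicate 2, the remaining one, had the highest sum of all. With Xist as a covariate, the members' log2 fold changes in 84Q against 15Q were between 0.55 and 0.74 and none was called, while in 84Q+IGF1 against 15Q all 7 were called.

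Choroid plexus RNA followed another order. Ttr, the transthyretin gene abundant in choroid plexus, had 354, 5.11 and 340 CPM in 15Q, 8.66, 832 and 0.855 CPM in 84Q, and 1.33, 1.84 and 19.8 CPM in 84Q+IGF1. All 8 markers of the choroid plexus list had counts, and their sum ran from 42.5 to 494 CPM in 15Q, from 29.0 to 1029 CPM in 84Q and from 28.2 to 67.5 CPM in 84Q+IGF1. The members were at like levels in 15Q replicates 1 and 2, which differed widely in Ttr, but the part of choroid plexus RNA in the members' differences was not tested.

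**Figure D5:**
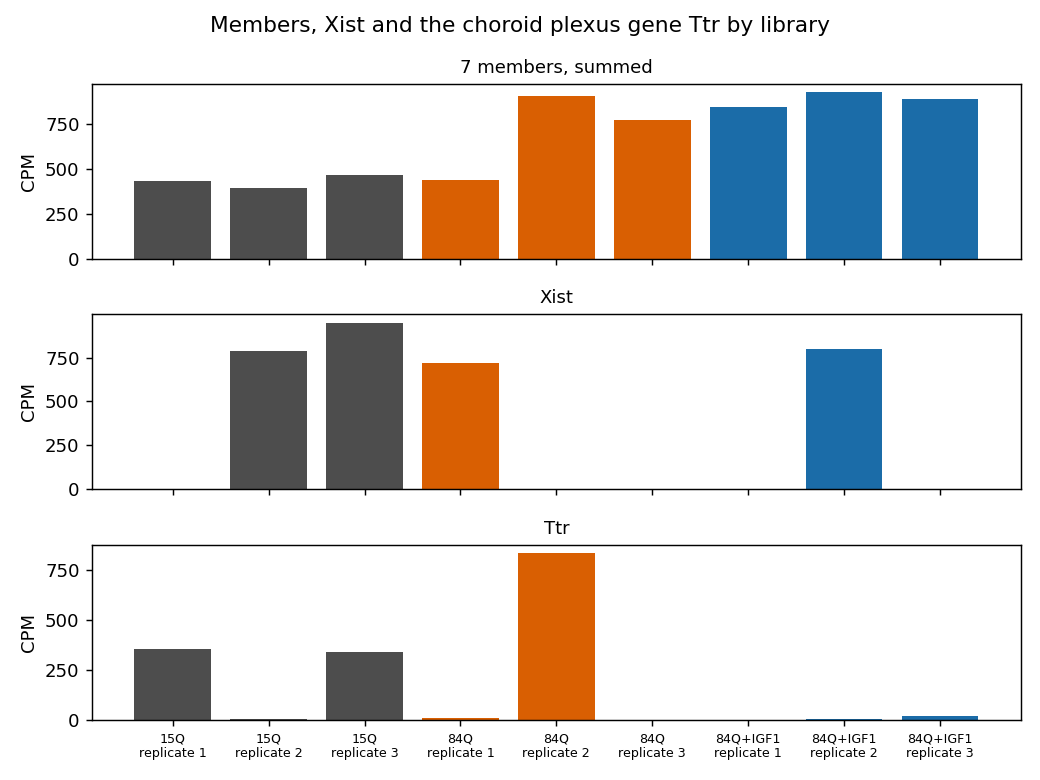
Summed level of the 7 members, of Xist and of Ttr in each of the 9 libraries, in CPM (bars from 0). The members are at 397 to 467 CPM in the 15Q libraries and 84Q replicate 1 and at 775 to 931 CPM in the others; neither Xist nor Ttr has this order.

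Traces of 2 other tissues separated 15Q from both 84Q groups. The 5 intestine markers summed to between 19.4 and 33.0 CPM in 15Q, 1.28 and 2.59 CPM in 84Q and 1.80 and 2.11 CPM in 84Q+IGF1, and Fabp1 was at or below 3 counts in each of the 6 libraries outside 15Q. The 5 skeletal muscle markers summed to between 10.2 and 16.0 CPM in 15Q and to at most 2.35 CPM in the others, with Myh4 at or below 3 counts in those 6. In 84Q replicate 1 both sums were low, as in the other 84Q libraries, while the members were at the 15Q level. Whether these traces had a part in the difference of the members from 15Q was not tested.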

How the data were processed

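RNA of 9 cerebella was sequenced as strand-specific, paired-end 150-base libraries. The deposited values are raw counts per gene: the authors trimmed reads with Trimmomatic 0.36, aligned them to GRCm38.p6 (mm10) with HISAT2 2.2.0 and counted them with featureCounts. The annotation, the strand setting and the treatment of multi-mapped reads are not given in the sources used here.

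For each gene kept by filterByExpr (19353), a quasi-likelihood model with TMM scaling was fitted in R 4.3.3 to the counts of all 9 mice by edgeR 4.0.16. P-values are two-sided and were adjusted by Benjamini and Hochberg's method. CPM use TMM-scaled totals, log2 CPM a prior count of 2, and TPM the exonic length of GENCODE vM21, in which 37681 of 37816 genes were found by unversioned identifier. Sequences were aligned with MAFFT 7.526 and blastn 2.17.0+. Intervals are 95% and derive from the F statistic.

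The members and gene lists were chosen with earlier results of these data known. Named besides them are at most 8 genes each of the interval and its flanks by mean CPM, with named chemokine and receptor genes, and the 5 genes most like Gm10601. Word-sharing genes, Xist and markers complete the names. The pair Gm13302 and Gm3892 was singled out after values were seen, as were Gm21541, Gm13304 and Gm10591. The fit was tested on simulated data. Alternatives comprised DESeq2 1.42.0, other filters, thresholds, scaling and covariates, and each library left out. The human transgene was not analysed here. 1 marker gene is not reported here.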

Additional observations from a re-analysis of the deposited data

How the results depend on the processing

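In 84Q against 15Q, the number of members called, 7 as reported, was 0 at an adjusted p under 0.05, 0 with Xist as a covariate, 2 with the libraries of the compared groups only, and 0 to 7 with 1 library left out. In 84Q+IGF1 against 15Q it ranged from 5 to 7 with 1 library left out, and for both 84Q groups together from 3 to 7. In 84Q+IGF1 against 84Q no member was called under any alternative (0 to 0 with 1 library left out), and the only log2 fold change of a member that turned direction was that of Gm10593, which ran from −0.031 (without 84Q replicate 1) to 0.35 with 1 library left out. No pairing of the mice by replicate number was seen over the genes tested: deviations of same-numbered libraries from their group means correlated between −0.31 and 0.08. With 3 libraries per group, this cannot show that no pairing exists. With the replicate number as a block, 3 members were called in 84Q against 15Q and 7 in both other comparisons against 15Q, and the calls over all genes fell to 242 in 84Q against 15Q and 271 in 84Q+IGF1 against 15Q.

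Over all genes, 84Q against 15Q gave 243 calls at an adjusted p under 0.05, 928 without a fold change threshold, 1025 without the filter on low counts and 184 to 551 with 1 library left out. The same settings gave 281, 711, 1284 and 226 to 629 in 84Q+IGF1 against 15Q. For both 84Q groups together, where 672 genes were called, they gave 446, 1944, 1235 and 278 to 819, and Xist as a covariate gave 427. In 84Q+IGF1 against 84Q, with 0 calls, there were 168 without the filter, 6 by DESeq2 and 0 to 9 with 1 library left out. Without the filter, the edgeR fit of the 3 groups pooled the spread over all genes, so its counts lack a spread per gene. The causes were otherwise not tested, except that a stricter or absent threshold changes a count by construction. The lowest member count was 273, in Gm10593, and 3 mice per group limit what could be detected.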
